A study of Mus musculus with 16 samples.

Results

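White adipose tissue of fed mice was compared with white adipose tissue of mice fasted for 24 h, gene by gene, in short-read RNA-Seq counts. The genes described were chosen from the counts themselves: a gene was a member when it reached 1 CPM (counts per 1000000 counts) in the fed white adipose library, the fasting white adipose library and the fed brown adipose library. This left 14146 of the 55385 genes in the table. The floor in brown adipose was there to drop genes of other tissues present in 1 pool only, and it removed 1500 of the 15646 genes that reached 1 CPM in both white adipose libraries.

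All groups were male C57BL/6 mice, acquired at 12 weeks of age and acclimatised before use. Fed mice had free access to chow, fasting mice had no food for 24 h, and tissue was taken at 10 am. The same tissue of the 3 mice of a treatment was pooled in equal parts, so each tissue had 1 library per treatment. White and brown adipose, liver, kidney, lung, spleen, heart and muscle were collected, 8 tissues and 16 libraries in all, and the depot of white fat is not named. The white adipose libraries held 23290761 counts (fed) and 27427876 counts (fasting), and all 16 held 14245178 to 36069968. With 1 library per group, no spread between mice can be given and the fold changes within white adipose carry no test. Since the members were chosen on these same values, their fold changes are a description.

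White adipose stores triglyceride in a single large droplet per adipocyte. In the fed state insulin drives glucose uptake, fatty acid synthesis and esterification, under the transcription factors SREBP-1c and ChREBP. In fasting, low insulin and high catecholamines release stored fat by lipolysis through ATGL (Pnpla2) and hormone-sensitive lipase (Lipe), part of the released fatty acid is esterified again on glycerol made through Pck1, and leptin secretion declines. FoxO factors, held in the cytoplasm by insulin signalling, and the glucocorticoid receptor act on many genes of the fasted state.

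The label of the tissue was checked on markers of fat cells. Cfd (adipsin) stood at 8052 CPM in fed and 6800 CPM in fasting white adipose. Fabp4, a fatty acid carrier of adipocytes, stood at 5635 and 6208 CPM, and Adipoq (adiponectin) at 2506 and 2248 CPM. Lep (leptin) stood at 1142 and 263 CPM, against 62.2 CPM in fed brown adipose. The 12 adipocyte markers summed to 52380 CPM fed and 43510 CPM fasting. Ucp1, which defines brown fat, was at 1.93 and 1.604 CPM, against 3132 CPM in fed brown adipose. In pooled tissue of this kind, fewer cells of a type and less RNA per cell cannot be told apart.

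The promoters of 5 genes are shown because they belong to the lipogenic, sterol and fasting-response genes on which the comparison turned, and because each held a CCAAT box or a FoxO motif. They were taken from RefSeq (GRCm38.p6) as 250 bases before to 50 bases after the start site, and read 5′ to 3′ on the gene's strand. Capitals mark matches to CCAAT on either strand (ATTGG on the other), or to GTAAACA for Txnip. Fasn lies at chr11:120824498-120824797 (minus strand), Pnpla3 at chr15:84167566-84167865 (plus strand) and Insig1 at chr5:28071162-28071461 (plus strand). Pdk4 lies at chr6:5496229-5496528 (minus strand) and Txnip at chr3:96557707-96558006 (plus strand).
Fasn: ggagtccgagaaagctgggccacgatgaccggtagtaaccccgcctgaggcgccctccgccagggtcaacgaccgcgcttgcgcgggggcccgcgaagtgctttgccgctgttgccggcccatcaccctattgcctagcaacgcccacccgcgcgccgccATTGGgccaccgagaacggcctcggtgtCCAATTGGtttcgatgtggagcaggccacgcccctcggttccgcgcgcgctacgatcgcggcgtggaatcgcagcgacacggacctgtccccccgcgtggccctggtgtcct
Pnpla3: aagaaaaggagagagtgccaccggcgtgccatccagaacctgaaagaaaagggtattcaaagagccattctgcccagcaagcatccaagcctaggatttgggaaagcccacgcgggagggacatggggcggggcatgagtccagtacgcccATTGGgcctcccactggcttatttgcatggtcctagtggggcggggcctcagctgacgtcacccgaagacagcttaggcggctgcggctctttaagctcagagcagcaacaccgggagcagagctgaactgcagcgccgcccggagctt
Insig1: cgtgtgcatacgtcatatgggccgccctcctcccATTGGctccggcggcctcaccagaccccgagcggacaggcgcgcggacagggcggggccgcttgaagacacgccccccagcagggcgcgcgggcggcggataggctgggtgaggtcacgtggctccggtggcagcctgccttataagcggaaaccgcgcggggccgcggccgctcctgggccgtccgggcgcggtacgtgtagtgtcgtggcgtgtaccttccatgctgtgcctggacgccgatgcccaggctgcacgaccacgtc
Pdk4: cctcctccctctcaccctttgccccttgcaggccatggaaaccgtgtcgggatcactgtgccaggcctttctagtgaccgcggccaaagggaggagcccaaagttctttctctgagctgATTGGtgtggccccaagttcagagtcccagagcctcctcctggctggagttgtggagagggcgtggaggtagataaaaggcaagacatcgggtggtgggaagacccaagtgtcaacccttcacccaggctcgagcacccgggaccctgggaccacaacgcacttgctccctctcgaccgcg
Txnip: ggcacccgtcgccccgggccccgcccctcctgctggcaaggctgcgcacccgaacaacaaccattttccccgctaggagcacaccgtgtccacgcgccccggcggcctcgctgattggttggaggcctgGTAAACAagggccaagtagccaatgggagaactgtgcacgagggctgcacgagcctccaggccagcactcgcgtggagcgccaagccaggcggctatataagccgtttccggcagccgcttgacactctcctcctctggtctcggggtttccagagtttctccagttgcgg
CCAAT was found in 37.4% of all 32851 promoters of this length, and GTAAACA in 3.65%. A match is a description of the letters in this window and not evidence of a bound factor.

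Across the members, 712 genes were past 2-fold higher in the fasting library (5.03%), 364 were past 2-fold lower (2.57%) and 13070 lay within 2-fold. Here past 2-fold means a log2 fold change, log2 of (CPM fasting + 0.01) over (CPM fed + 0.01), above 1 in size. The median was 0.03, and the central 80% of members lay between -0.50 and 0.65. Past 4-fold, 192 genes were higher and 33 lower. The genes past 2-fold higher were low genes, with a median of 6.72 CPM in the fed library, and those past 2-fold lower had a median of 32.8 CPM, against 25.0 CPM for all members. The fed level is also the denominator of the fold, so that part of this contrast is built in. Higher genes made up 66.2% of the genes past 2-fold, but 56.6% with TMM factors (597 higher, 458 lower) and 55.8% with DESeq2 size factors (592 higher, 469 lower), which shifted the median of all members by -0.11 and -0.11 on the log2 scale.

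**Figure D1:**
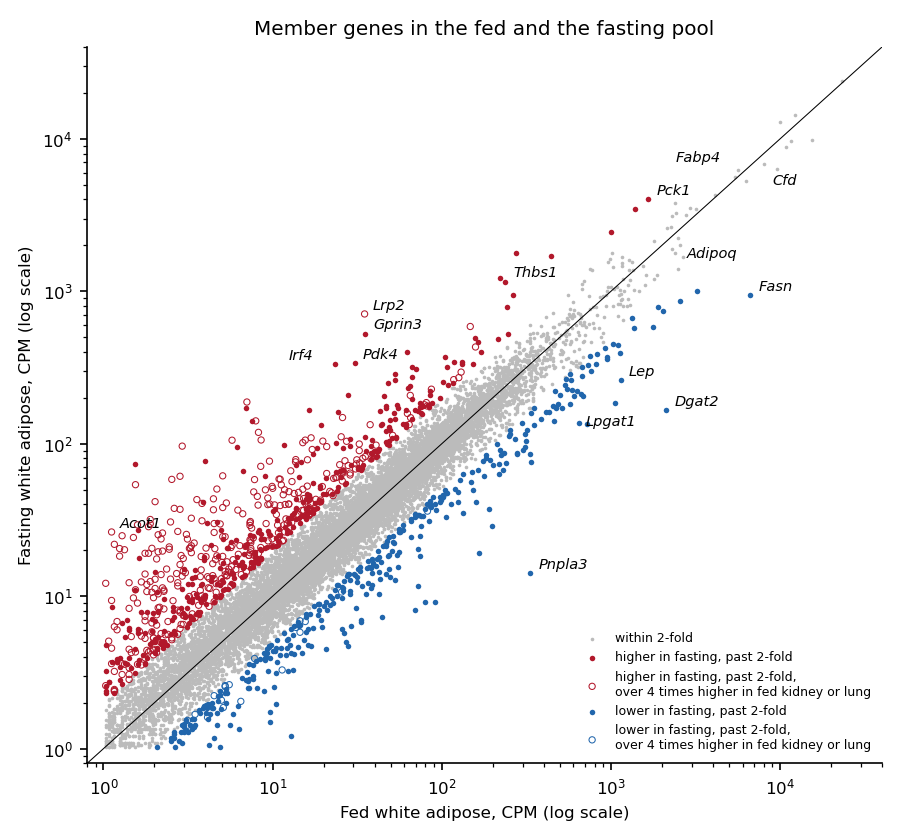
Level of each of the 14146 members in the fed (x axis) and the fasting (y axis) white adipose library, in CPM on log scales; red points are past 2-fold higher and blue points past 2-fold lower in fasting, and open points mark genes more than 4 times higher in fed kidney or lung than in fed white adipose. Cfd, Fabp4 and Adipoq lie near the diagonal, Fasn, Dgat2, Pnpla3 and Lep below it, and most of the highest rises of low genes are open points.

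The floor in brown adipose left members that were much higher in fed kidney or lung. Of the 712 members past 2-fold higher, 341 (47.9%) were more than 4 times higher in fed kidney or lung than in fed white adipose, against 7.97% of all members and 19 of the 364 past 2-fold lower (5.22%). The fed white adipose level enters both this ratio and the fold, so that a low fed value raises both and part of this contrast is built in. With the limit set on fed brown adipose, which is not in the fold, the shares were 51.4% of the higher, 17.6% of the lower and 15.9% of all members. With the limit set on both white adipose libraries they were 17.7%, 5.22% and 5.15%. The marker sums given here cover all genes of a list, members or not. The 13 epithelial markers, of which Krt8 and Prom1 alone were members, summed to 26.1 CPM in fed and 510 CPM in fasting white adipose (11 of 13 past 2-fold higher), against 5.66 and 7.93 CPM in brown adipose. Among them Prom1 went from 7.04 to 188 CPM, Epcam from 1.16 to 59.7 CPM and Krt8 from 8.54 to 106 CPM, while Krt5 was at 0 in both.

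Genes of motile cilia, a list chosen after the values were seen, were past 2-fold higher in 18 of 18 cases and summed to 27.9 CPM fed and 1137 CPM fasting, though only 5 of the 18 were members. Foxj1, the master regulator of motile cilia, stood at 1.76 and 126 CPM. Of 10 genes of resorptive epithelium, also chosen afterwards, 9 were past 2-fold higher (5 were members), with sums of 49.4 and 963 CPM, and Lrp2 (megalin, an endocytic receptor) stood at 34.9 and 710 CPM. The 10 kidney tubule markers summed to 36.7 and 42.7 CPM.

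The 25 epididymis markers went the other way, from 101 CPM fed to 38.3 CPM fasting, with 15 of 25 at 0 in the fasting library and 22 past 2-fold lower; Sult1e1 made up 72.8 and 36.4 CPM of these sums. Gpx5, a secreted epididymal protein, stood at 10.2 and 0.0729 CPM. The 10 B cell markers summed to 353 and 88.8 CPM, of which Ighm made up 338 and 76.3 CPM. Mesothelium (392 and 457 CPM), macrophage and monocyte (1620 and 1600 CPM), endothelium (2490 and 2193 CPM) and preadipocyte and fibroblast markers (12830 and 11380 CPM) were closer between the libraries. Several other sums moved mostly through 1 gene. The mammary and skin sum went from 8.37 to 140.5 CPM, of which Dsp (desmoplakin, not a member) made up 3.35 and 136.9 CPM. The brown adipocyte sum went from 27.5 to 54.0 CPM, of which Kcnk3 made up 15.7 and 43.4 CPM. The smooth muscle sum was 1587 and 1191 CPM, with Rgs5 at 502 and 209.9 CPM, and the Schwann cell sum 239 and 147 CPM, with Pmp22 at 182 and 80.7 CPM. Skeletal muscle (435 and 492 CPM), erythrocyte (491 and 540 CPM), hepatocyte (106 and 103 CPM) and mast cell markers (44.6 and 63.7 CPM) lay within 2-fold. Neutrophil, T and NK cell, pancreatic, testis and seminal vesicle markers summed to at most 25.8 CPM in either library. The part of these markers in the folds of the adipocyte genes was not tested. Where a gene is said to be over 4 times higher in fed kidney or lung, the level it is set against is that of fed white adipose.

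**Figure D2:**
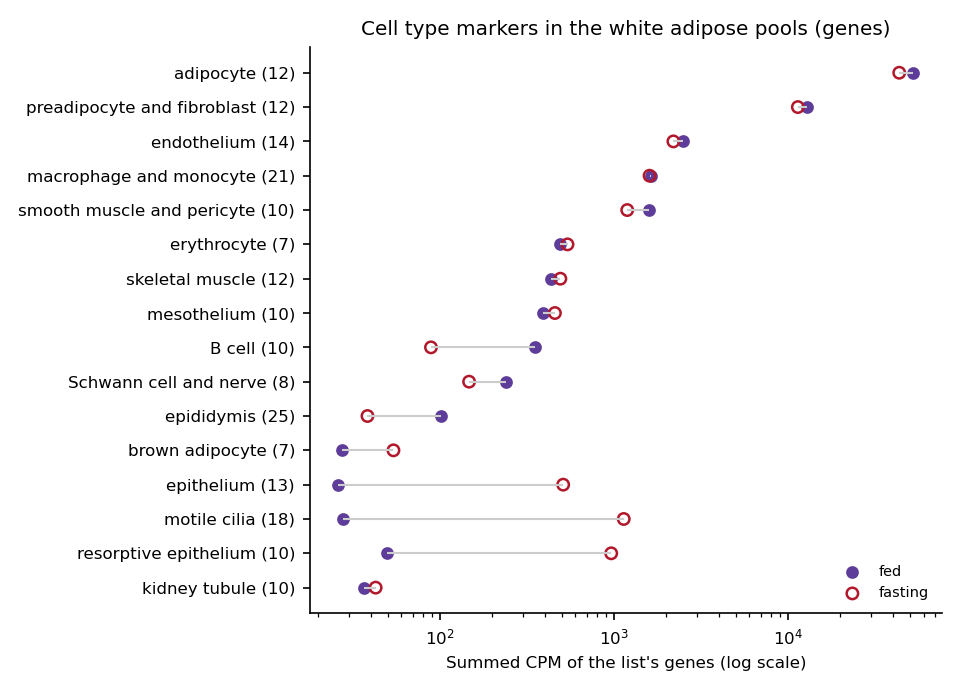
Summed CPM of cell type marker lists (log scale; number of genes in brackets) in the fed (filled) and the fasting (open) white adipose library. The adipocyte, fibroblast, endothelial and macrophage sums nearly coincide, while the epithelium, motile cilia and resorptive epithelium sums are far higher and the epididymis and B cell sums lower in fasting.

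Fatty acid synthesis was the gene group with the lowest median in fasting white adipose. Of 24 members of the de novo lipogenesis list, 8 were past 2-fold lower and 2 higher, with a median of -0.86 against 0.03 over all members. With TMM or DESeq2 scaling 11 were past 2-fold lower and 2 higher. The median was then -0.97 or -0.98, against -0.08 or -0.09 over all members. In brown adipose the median of the same genes was -0.96, with 12 past 2-fold lower and 0 higher. Pnpla3 (chr15:84167837-84187236), a lipid droplet protein under SREBP-1c and ChREBP control, stood at 332 CPM in fed and 14.2 CPM in fasting white adipose, a log2 fold change of -4.55 (95% counting interval -4.70 to -4.40). It was the lowest fold of all members. Such intervals are exact binomial and hold no more than counting error, since the reads carry no molecular identifiers and need not be separate molecules. They also leave out the choice of scaling, which alone shifted the median by -0.11 with TMM or DESeq2 factors.

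Fasn (chr11:120805846-120824547), the fatty acid synthase, stood at 6614 and 939 CPM (log2 fold change -2.82, interval -2.83 to -2.80). Thrsp, a lipogenic nuclear protein, stood at 726 and 134 CPM (-2.44). Acly, which makes cytosolic acetyl-CoA from citrate, stood at 604 and 205 CPM (-1.55), a smaller drop than in brown adipose (-3.50). Srebf1, which encodes SREBP-1c, had 432 and 161 CPM (-1.43). The malic enzyme Me1 (-1.42), the citrate carrier Slc25a1 (-1.41) and the acetyl-CoA synthetase Acss2 (-1.17) completed the 8 genes.

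Scd1, the stearoyl-CoA desaturase and the highest gene of the list, was nearly level at 23188 and 23775 CPM (log2 fold change 0.04). Per length, Scd1 was also high in both libraries, at 14995 TPM fed and 15557 TPM fasting (counts per length, scaled to the same sum), against 1911 and 275 TPM for Fasn. Acaca, the cytosolic acetyl-CoA carboxylase, stood at 1174 and 647 CPM (-0.86). Acacb, the isoform at the mitochondrial membrane whose product restrains fatty acid import, went the other way, from 264 to 948 CPM (1.85). Fads2, a fatty acid desaturase, went from 20.9 to 95.7 CPM (2.197), and was among the genes over 4 times higher in fed kidney or lung. The list therefore did not move as a block.

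Of the 21 de novo lipogenesis members with a RefSeq promoter, 13 held CCAAT, in 51.9% of the list's promoters against 37.4% of all. The glucocorticoid and FoxO list held it in 50% of promoters. The share was 42.9% for members past 2-fold lower and 36.8% for those higher, or 41.3% for the higher members that were not over 4 times higher in fed kidney or lung than in fed white adipose. The Fasn promoter printed above held 3 matches, the first of which began 90 bases before the start site, and the Pnpla3 promoter held 1.

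In the list of triglyceride synthesis and glyceroneogenesis, 3 of 16 members were past 2-fold higher and 4 lower, with a median of -0.13. Dgat2 (chr7:99153658-99182719), which adds the last acyl chain to diacylglycerol, stood at 2114 CPM in fed and 167 CPM in fasting white adipose, 12.7-fold lower (log2 fold change -3.66, interval -3.71 to -3.62). Dgat1, the other enzyme of that step, was level at 198 and 202 CPM. In brown adipose Dgat2 was level as well, at 1842 and 1919 CPM.

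Agpat2, which makes phosphatidic acid and is needed for fat storage, stood at 334 and 85.5 CPM (-1.97). Gpd1, which makes glycerol 3-phosphate from a glycolytic intermediate, stood at 626 and 223 CPM (-1.49), and Mogat1 at 30.4 and 14.1 CPM (-1.11). The genes past 2-fold higher were Pck1, Gk and Lpin2. Pck1, the enzyme of glyceroneogenesis, went from 1659 to 4019 CPM (1.28), and Gk (glycerol kinase) from 17.1 to 91.6 CPM (2.42). Lpin2, a phosphatidic acid phosphatase, went from 30.9 to 68.3 CPM (1.14). Gk and Lpin2 were over 4 times higher in fed kidney or lung.

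The lipases of lipolysis were within 2-fold and the largest differences were in their regulators. Pnpla2 (ATGL), which starts triglyceride breakdown, stood at 993 CPM fed and 1623 CPM fasting (log2 fold change 0.71), and Lipe at 1615 and 1283 CPM (-0.33). Of the 30 members of the lipolysis and lipid droplet list, 2 were past 2-fold higher and 3 lower, and the median was 0.01; its sign changed with TMM or DESeq2 scaling (-0.10 and -0.11) or without the 10 highest genes.

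G0s2, the inhibitor of ATGL, stood at 302 and 90.6 CPM (-1.73). Plin1, the droplet coat protein that gates lipolysis, stood at 2021 and 746 CPM (-1.44), and Npr3, the clearance receptor for natriuretic peptides, at 1764 and 582 CPM (-1.60). Plin5, a droplet protein of oxidative tissues, went from 7.69 to 24.8 CPM (1.69). The genes of the list with the most counts, Fabp4 (0.14) and Plin4 (0.06), were level.

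Fat uptake genes were mostly level too, with 1 of 13 past 2-fold higher, 1 lower and a median of 0.05, which was below 0 with TMM or DESeq2 scaling. Lpl (lipoprotein lipase), which frees fatty acids from plasma triglyceride, stood at 6308 and 5321 CPM (-0.25), and Cd36, a fatty acid receptor, at 4115 and 4275 CPM (0.05). Angptl4, an inhibitor of LPL, stood at 333 and 602 CPM (0.85). Slc27a1, a fatty acid transport protein, went from 439 to 1696 CPM (1.95).

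**Figure D3:**
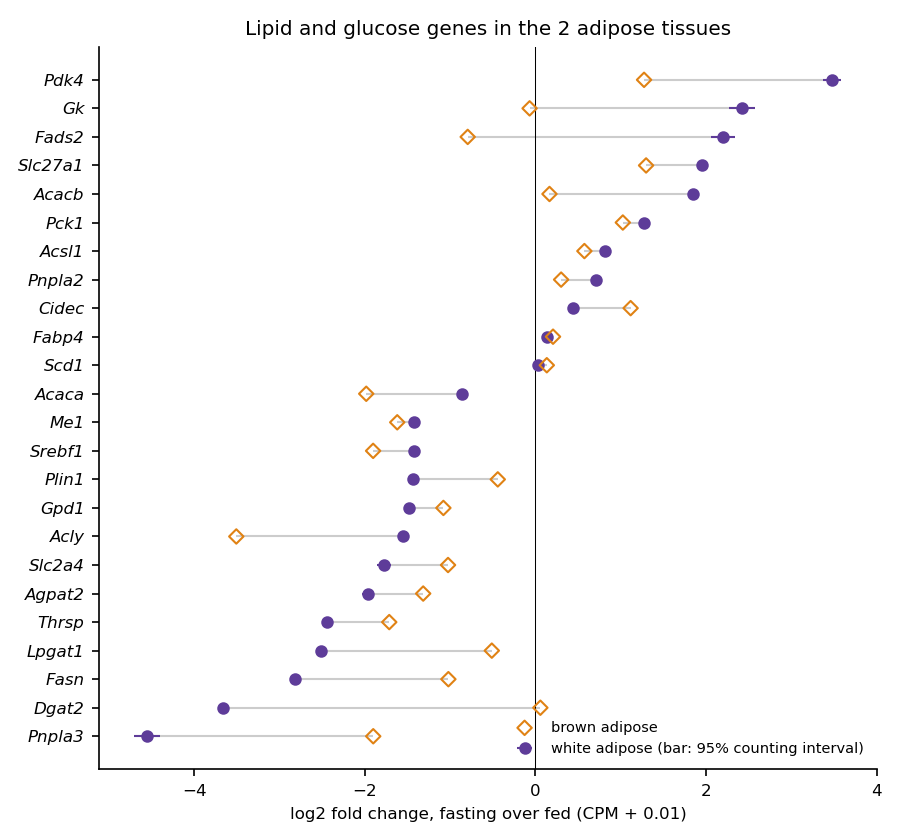
Log2 fold change, fasting over fed, of 24 lipid and glucose genes in white adipose (filled, with the 95% counting interval) and brown adipose (open diamonds). Dgat2, Lpgat1, Fasn and Pnpla3 lie further below 0 in white than in brown adipose, Acly lies further below 0 in brown, and Gk, Fads2 and Acacb are above 2-fold in white adipose alone of the 2 tissues.

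Genes of insulin action and glucose use were lower on balance, with a median of -0.24 over 38 members, 27 of them below 0. Of all 14146 members, 6684 were below 0. With TMM factors 30 of the 38 and 8295 of all members were below 0. In the list 3 genes were past 2-fold lower (6 with TMM or DESeq2 scaling) and 2 higher. Slc2a4 (GLUT4), the insulin-responsive glucose transporter, stood at 217 and 63.5 CPM (log2 fold change -1.77, interval -1.85 to -1.69). Hk2, which traps glucose in the cell, stood at 192 and 77.99 CPM (-1.30), and Pygb, a glycogen phosphorylase, at 488 and 183 CPM (-1.41). Grb10, an adaptor that restrains insulin receptor signalling, went from 101 to 256 CPM (1.34), and Igf1r, the IGF-1 receptor, from 79.0 to 180 CPM (1.19), the latter over 4 times higher in fed kidney or lung. Insr (0.56) and Irs1 (-0.02) were within 2-fold.

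Downstream of glucose, the TCA cycle and pyruvate entry list had 23 of 25 members below 0 and a median of -0.39, with none past 2-fold. With TMM or DESeq2 scaling 1 member was past 2-fold lower. Pdhb, a subunit of pyruvate dehydrogenase, was lowest at -0.97, followed by Cs (citrate synthase) at -0.87. The brown adipose median of the list was -0.16. Branched-chain amino acid breakdown had a median of -0.17, with 1 of 24 members past 2-fold higher and none lower.

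Secreted proteins of fat were lower in part. Lep (chr6:29060220-29073877) had a log2 fold change of -2.12 (interval -2.16 to -2.08). Hp (haptoglobin) stood at 2542 and 864 CPM (-1.56) and Nnat (neuronatin) at 1104 and 441 CPM (-1.32). Apln (apelin) stood at 13.7 and 6.23 CPM (-1.14) and was over 4 times higher in fed kidney or lung. Against these, Mest, which marks fat mass expansion, went from 108 to 319 CPM (1.56), Vegfa from 246 to 524 CPM (1.09) and Dpp4 from 46.8 to 103 CPM (1.14). Vegfa was within 2-fold with TMM or DESeq2 scaling (0.98 in both). Of 29 members, 4 were past 2-fold higher and 5 lower, with a median of -0.27, while Cfd (-0.24) and Adipoq (-0.16) were within 2-fold.

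The glucocorticoid and FoxO list had the highest median of the 19 lists, 0.81 over 33 members. Of these, 28 were above 0, 10 past 2-fold higher (8 with TMM or DESeq2 scaling) and none lower. The same genes had a median of 0.99 in brown adipose, with 15 past 2-fold higher. Pdk4 (chr6:5483351-5496309), which shuts off pyruvate dehydrogenase, went from 30.5 to 339 CPM in white adipose, 11.1-fold higher (log2 fold change 3.48, interval 3.37 to 3.59). Depp1, a FoxO target, went from 19.3 to 132 CPM (2.77), and Ddit4, an inhibitor of mTORC1, from 24.3 to 162 CPM (2.73).

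Txnip, which restrains glucose uptake, went from 1390 to 3452 CPM (1.31). Cebpd (1.84), Sgk1 (1.61), Pik3ip1 (1.27), Fkbp5 (1.16), Ucp2 (1.10) and Gadd45b (1.04) were the other members past 2-fold. With TMM or DESeq2 scaling Ucp2 (0.998 and 0.989) and Gadd45b were within it, which left 8 genes of the list past 2-fold. Gadd45b was over 4 times higher in fed kidney or lung. Fkbp5, a co-chaperone induced by glucocorticoids, was at 3.65 in brown adipose. GTAAACA lay in promoters of 5 of 28 matched genes of this list (12.5% of promoters against 3.65% of all, 2.71% in members past 2-fold higher and 5.19% in those lower). The 5 were Hsd11b1, Klf9, Sesn1, Trim63 and Txnip, of which Txnip alone was past 2-fold, and there the motif began 121 bases before the start site.

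Fat oxidation genes were mostly within 2-fold. The median of 31 members of the beta-oxidation and ketone list was 0.07, below 0 with TMM or DESeq2 scaling, and 4 were past 2-fold higher and none lower. Besides Pdk4 and Ucp2 these included Acot1, an acyl-CoA thioesterase, at 1.12 and 26.4 CPM (4.55, and over 4 times higher in fed kidney or lung). Reads of Acot1 can be shared with its near-identical neighbour Acot2 (0.29), so its counts are uncertain. Cpt1a, which admits long-chain fatty acids to mitochondria, stood at 121 and 168 CPM (0.47).

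Among thermogenic and beige genes 5 of 18 were past 2-fold higher and none lower (median 0.27). Ckb, the creatine kinase of futile creatine cycling, went from 55.3 to 171 CPM (1.63) and Slc6a8, the creatine transporter, from 32.5 to 90.1 CPM (1.47). Kcnk3, a potassium channel of brown fat, went from 15.7 to 43.4 CPM (1.46). Slc27a2 (2.23) and Gk were the others, and Slc6a8, Slc27a2 and Gk were over 4 times higher in fed kidney or lung. Ucp1 (-0.27), Cidea (0.23) and Cox8b (-0.58) were within 2-fold.

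**Figure D4:**
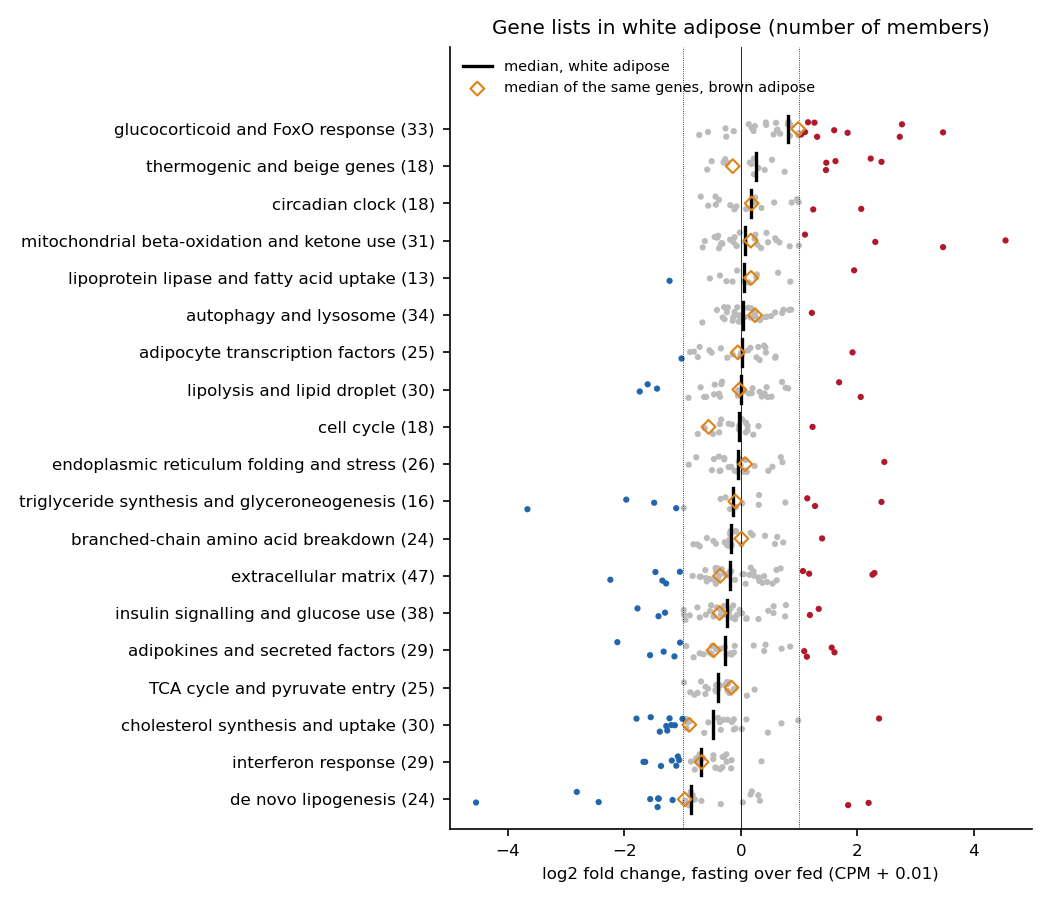
Log2 fold change of each member of 19 gene lists in white adipose (points; red past 2-fold higher, blue past 2-fold lower), with the white adipose median (bar) and the median of the same genes in brown adipose (diamond). Glucocorticoid and FoxO genes have the highest white adipose median (0.81) and de novo lipogenesis the lowest (-0.86).

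Sterol genes were lower in part. In the cholesterol list 9 of 30 members were past 2-fold lower and 1 higher, with a median of -0.47 (-0.88 in brown adipose). With TMM or DESeq2 scaling 12 were past 2-fold lower and 1 higher. Insig1, which retains SREBPs in the endoplasmic reticulum, stood at 164 and 67.4 CPM (-1.28). The largest drops were in the enzymes Idi1 (11.4 and 3.28 CPM, -1.79), Sc5d (179 and 61.2 CPM, -1.55) and Mvk (25.6 and 9.77 CPM, -1.39). Idi1 was over 4 times higher in fed kidney or lung. The exception was Abcg1, a cholesterol exporter, at 48.3 and 251 CPM (2.38). CCAAT lay in promoters of 18 of the 21 matched genes of this list (69.2% of promoters), Insig1 among them; the circadian clock list, with a median of 0.17, held it in 75% of promoters.

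Interferon response genes had a median of -0.68 over 29 members, with 28 below 0, 7 past 2-fold lower and none higher; the brown adipose median was -0.67. The guanylate binding proteins led: Gbp6 stood at 8.03 and 2.52 CPM (-1.67), Gbp5 at 19.6 and 6.27 CPM (-1.64), Gbp3 at 41.0 and 15.9 CPM (-1.37) and Gbp2 at 91.2 and 40.1 CPM (-1.18). Members of the Gbp family share sequence, and reads may be split between them. The macrophage and monocyte markers summed to 1620 and 1600 CPM and the B cell markers to 353 and 88.8 CPM. The 12 T and NK cell markers summed to 14.6 and 13.3 CPM, with 5 past 2-fold lower and 0 higher. The part of these cells in the interferon folds was not tested.

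The extracellular matrix list had a median of -0.18 over 47 members, with 4 past 2-fold higher and 5 lower. Col15a1, a collagen of the basement membrane zone, stood at 649 and 137 CPM (-2.24), and Serpinh1, the collagen chaperone HSP47, at 470 and 170 CPM (-1.46). Col5a3 (-1.35), Nid2 (-1.28) and Col5a1 (-1.05) were the others past 2-fold lower. The thrombospondins, matrix glycoproteins that restrain vessel growth, were higher: Thbs1 went from 235 to 1158 CPM (2.30) and Thbs2 from 66.3 to 318 CPM (2.26). Lox, which cross-links collagen, went from 72.5 to 164 CPM (1.18). Mmp3 was the last (1.16 and 2.44 CPM, 1.07), near the floor, within 2-fold under 3 other settings and over 4 times higher in fed kidney or lung.

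Of 25 adipocyte transcription factors, Cebpa was past 2-fold lower (756 and 374 CPM, -1.02, and -0.9988 with the member genes alone as the total) and Nr4a3 higher (2.92 and 11.1 CPM, 1.92), and Pparg, the master regulator of adipocytes, stood at 280 and 221 CPM (-0.34). Of 18 clock genes, 2 were past 2-fold higher, Per2 (1.25) among them, and none lower. Endoplasmic reticulum genes (Chac1, 2.47), autophagy genes (Npc1, 1.22) and cell cycle genes (Ccnd1, 1.23) each had 1 member past 2-fold higher and none lower. In brown adipose 6 of the autophagy list were past 2-fold higher.

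Outside the lists, the largest drops at 10 CPM or more included Gpt (alanine aminotransferase), at 165 and 19.1 CPM (-3.11), and Lpgat1, an acyltransferase of phospholipid remodelling, at 1058 and 186 CPM (-2.51). Cdkn2c, a CDK inhibitor, stood at 197 and 29.0 CPM (-2.76), Trabd2b at 90.6 and 9.11 CPM (-3.31), Aplnr, the apelin receptor, at 72.1 and 11.6 CPM (-2.64) and Igfals at 44.5 and 7.33 CPM (-2.60). In brown adipose Gpt (-1.17) and Trabd2b (-1.82) were also past 2-fold lower, as were Cdsn (-3.08 in white, -4.47 in brown) and Cldn22 (-3.40 and -2.38), while Aplnr (-0.93), Cdkn2c (-0.67), Lpgat1 (-0.51) and Igfals (0.03) were within 2-fold.

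Of the 12 largest differences upward at 10 CPM or more, Ccdc162 (5.11), Cfap54 (5.04), Prom1 (4.73), Acot1 (4.55), Hnf4a (4.52), Dnah10 (4.43), Ccl28 (4.36), Lrp2 (4.34) and Cfap46 (4.26) were over 4 times higher in fed kidney or lung. Tmem132b (5.57), Zim1 (4.62) and Wnk2 (4.26) were not. Among members below that limit, and named after their values were seen, Irf4 (chr13:30749226-30766976), a transcription factor that in adipocytes is induced by fasting, went from 23.3 to 335 CPM (3.84, interval 3.72 to 3.97). Gprin3 went from 34.9 to 527 CPM (3.91), Acsbg1, an acyl-CoA synthetase, from 7.56 to 141 CPM (4.22), Dnaja4, a co-chaperone, from 16.4 to 167 CPM (3.35) and Cacna1h from 6.66 to 65.7 CPM (3.30).

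To set these responses beside those of the other tissues, all 16 libraries were fitted in edgeR with terms for tissue, fasting and fasting in white adipose. The last term compares the white adipose fold with the mean fold of the other 7 tissues, measured against the spread of the response among those 7 (6 residual degrees of freedom). The lone white adipose pair is assumed to vary like the other pairs, and every tissue was taken from 1 of the same 2 groups of mice, so that the p-values do not measure the spread between mice. The white adipose fold in this term is also the fold on which many of the genes named here were picked. Calls for such genes are therefore partly built in, and they describe the genes without giving independent support. With p-values adjusted over all genes fitted (Benjamini-Hochberg, threshold 0.05), 262 members responded higher (1.85%) and 93 lower (0.657%) than the other tissues. Of all 23580 genes fitted, 3.95% responded higher and 0.437% lower. Without members over 4 times higher in fed kidney or lung, 85 of 13018 responded higher (0.653%) and 91 lower (0.699%).

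Of the 16 members of the triglyceride list, 2 differed downward and 1 upward, and of the 24 of the de novo lipogenesis list 1 each way. Dgat2 differed by -3.86 ± 0.33 (SE, log2; adjusted p = 6.3e-05 by edgeR) and in the other 7 tissues its fold lay between -0.42 in liver and 0.35 in kidney. Pnpla3 differed by -3.33 ± 0.62 (adjusted p = 0.0087), Lpgat1 by -2.42 ± 0.46 (0.0091), Slc2a4 by -1.53 ± 0.34 (0.026) and Agpat2 by -1.79 ± 0.44 (0.042). Agpat2 lost its call in 7 of 11 alternatives (adjusted p by edgeR or DESeq2 0.0017 to 0.0737), and Slc2a4 in 2 of 11, without kidney or lung (0.0026 to 0.0565). In brown adipose Pnpla3 (-1.90), Agpat2 (-1.31) and Slc2a4 (-1.02) were past 2-fold lower as well. The difference for Fasn, -1.96 ± 0.72, did not pass (adjusted p = 0.23), and Fasn was also lower in liver (-2.77) and muscle (-1.63). The genes Fmr1 (-1.86 ± 0.19), Cdkn2c (-2.73 ± 0.31), Pank3, which makes coenzyme A (-1.56 ± 0.24), and Thbd (thrombomodulin, -1.95 ± 0.30) passed with adjusted p of 0.00015 to 0.0029. Fmr1 stood at 278 and 86.2 CPM in white adipose and lay between -0.29 and 0.07 elsewhere.

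Among the responses that were higher than elsewhere, Ckb differed by 1.95 ± 0.25 (adjusted p = 0.00077), Mest by 2.03 ± 0.33 (0.0039), Thbs2 by 1.83 ± 0.31 (0.0044), Abcg1 by 2.03 ± 0.43 (0.019), Dpp4 by 1.11 ± 0.24 (0.019) and Grb10 by 1.22 ± 0.27 (0.025). Ckb was below 0 in each of the other 7 tissues (-0.89 to -0.16), while Abcg1 was also past 2-fold higher in brown adipose (21.1 and 52.9 CPM, 1.33). Irf4 differed by 3.67 ± 0.48 (0.00093) and Gprin3 by 3.56 ± 0.44 (0.00062). Fads2 (2.40 ± 0.46, 0.011), Gk (2.30 ± 0.51, 0.024) and Ccnd1 (1.79 ± 0.43, 0.036) also passed, and all 3 were over 4 times higher in fed kidney or lung; Ccnd1 lost its call in 2 of 11 alternatives, without heart or muscle.

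The same fit gives the mean fasting response of the other 7 tissues, in which the white adipose pair has no part. It passed at 1.2% (higher) and 0.831% (lower) of all genes fitted, and for 236 and 155 of the members. Of the 712 members past 2-fold higher in white adipose, 62 were higher in the other tissues and 2 lower, and of the 364 past 2-fold lower, 35 were lower and 1 higher. The glucocorticoid and FoxO list had 19 of 33 members higher in the other tissues. Pdk4 rose by 3.002 ± 0.46 (adjusted p = 0.01), Ddit4 by 2.51 ± 0.41 (0.014), Txnip by 1.42 ± 0.17 (0.0024), Acot1 by 2.66 ± 0.23 (0.00043) and Peg3 by 1.74 ± 0.18 (0.0013). The cholesterol list had 11 of 30 lower, the interferon list 10 of 29 lower and the extracellular matrix list 11 of 47 lower and 3 higher, Col3a1 among the lower (-1.13 ± 0.09, 0.00043). Leaving out 1 of the 7 tissues gave 11 to 17 higher in the glucocorticoid and FoxO list, and 4 to 15, 4 to 10 and 6 to 10 lower in the other 3 lists. The fewest were found without heart in the first list, and without brown adipose in the others (for the interferon list also without lung or muscle, for the matrix list also without heart or muscle).

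The white adipose shares past 2-fold can be read beside those of the other tissues at the same limit, each over genes at 1 CPM in both libraries of the tissue; the white adipose members also had to reach 1 CPM in fed brown adipose. Over the 15646 genes at 1 CPM in both white adipose libraries the shares were 6.63% higher and 2.61% lower. In the other tissues the shares were 2.33% higher and 3.8% lower in muscle, 2.47% and 4.08% in liver, 2.61% and 4% in brown adipose, and 2.25% and 2.34% in heart. They were 0.727% and 0.315% in spleen, 1.2% and 1.06% in kidney, and 0.943% and 2.1% in lung. The epithelial and cilia genes described above were higher in the same fasting library. Without members over 4 times higher in fed kidney or lung, the white adipose share of higher genes was 2.85% with the limit set on fed white adipose, 2.91% with it set on fed brown adipose and 4.37% with it set on both white adipose libraries. The other tissues were not filtered in this way.

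Of the 984 members past 2-fold in white adipose that reached 1 CPM in both brown adipose libraries, 652 were higher and 332 lower. Of the 652, 121 (18.6%) were past 2-fold higher in brown adipose and 35 (5.37%) lower, against 2.49% and 3.61% of all 13700 members at that level in brown adipose. Among the 35, 12 were not over 4 times higher in fed kidney or lung. Of the 332, 104 (31.3%) were lower in brown adipose and 2 (0.602%) higher. Esr1, the estrogen receptor alpha, went from 85.0 to 221 CPM in white adipose (1.38) and from 120 to 54.4 CPM in brown (-1.14). Cilp, a matrix protein, went from 45.8 to 206 CPM in white adipose (2.17) and was at 4.70 and 1.61 CPM in brown (-1.53). These pairs have 1 library per group and were not tested.

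**Figure D5:**
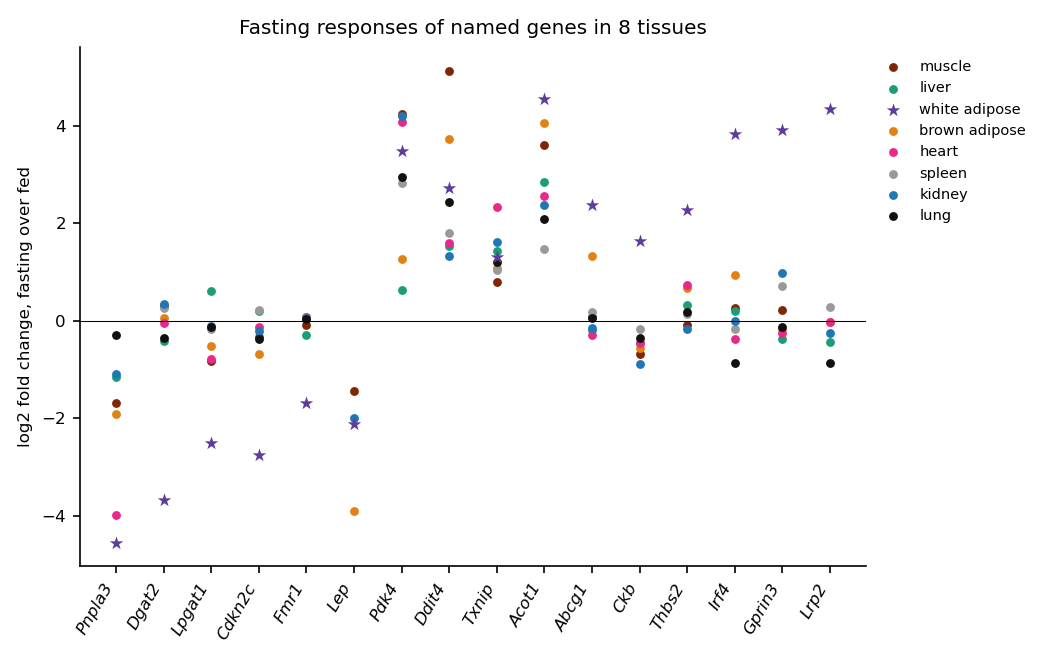
Log2 fold change, fasting over fed, of 16 named genes in 8 tissues (star, white adipose; a tissue is left out where neither library reached 1 CPM). Dgat2, Lpgat1, Cdkn2c and Fmr1 lie below and Ckb, Thbs2, Irf4, Gprin3 and Lrp2 above all other tissues in white adipose, while Pdk4, Ddit4, Txnip and Acot1 are above 0 in all 8.

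The floor at 1 CPM cuts through a continuous range. The 5 members nearest to it, among them Klhl41, Snx22, Zdbf2 and Igfbp2, had lowest values of 1.021 to 1.024 CPM, and the folds of these 4 ran from -0.59 to 1.55. The 5 genes just outside, Rpl28-ps1, Muc1, Ampd1, Cxcl13 and Aldh1l2, had a lowest value of 0.9875 CPM and folds of 0.10 to 2.02. Of the 1500 genes that the brown adipose floor removed, 326 (21.7%) were past 2-fold higher and 45 (3%) lower.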

How the data were processed

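Tissue of 3 mice per treatment was pooled, and 16 strand-specific libraries (8 tissues, fed or 24 h fasting) were sequenced as paired-end reads of 100 bp. The authors used fastp 0.23.2 for trimming, FastQC 0.11.8 for quality, HISAT2 2.2.1.0 for alignment to GRCm38, and deposited raw counts per gene from featureCounts (subread 2.0, GENCODE vM24), with each gene's length, an other value written by the authors' program. Whether reads or pairs were counted, and the strand setting, are not given in the sources used here. The 37 mitochondrial genes have 0 counts. Symbols came from GENCODE M21 (54487 of 55385 identifiers matched with version, 55144 without).

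Counts were divided by library totals to CPM, and fold changes used a pseudocount of 0.01 CPM, as in the study's methods; 3 counts equal 0.129 CPM in the fed and 0.109 CPM in the fasting library. TPM divide counts by length. Intervals are exact Clopper-Pearson at 95%. The study's Fisher test was not used, since it holds only counting error. Tests used edgeR 4.0.16 (R 4.3.3; TMM, filterByExpr, quasi-likelihood, Benjamini-Hochberg). The fit's common coefficient of variation was 0.171. On simulated counts of 23164 genes the test of white adipose against the other tissues recovered 9, 34, 45 and 46 of 50 genes changed 2-, 4-, 8- and 16-fold, with 15 false among 149 calls. The test of the other tissues' mean response recovered 40, 50, 49 and 50 of 50, with 36 false among 225 calls.

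Named genes are the 4 given markers; of each of 19 pathway lists up to 5 genes past 2-fold each way and the 2 highest; the 12 largest folds each way at 10 CPM or more; the 8 smallest p each way; and the 3 highest of each of 21 marker lists. The members and lists were chosen with earlier results of these data known, and 6 lists and the genes so marked after the values were seen. Promoters were searched for 7 motifs, of which CCAAT and FoxO are described. Alternatives were other scalings, a pseudocount of 1 CPM, other floors and limits, DESeq2 1.42.0, no filter, robust dispersion and each other tissue left out. Other steps used scipy 1.17.1 and pandas 2.3.3 in Python 3.11.15. Some named genes are not reported here.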

Additional observations from a re-analysis of the deposited data

Results flagged for a closer look

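The white adipose response of these named genes differed from the mean of the other 7 tissues in the edgeR fit (adjusted p under 0.05), given as the difference in log2 fold change. Lower than elsewhere were Dgat2 (-3.86), Pnpla3 (-3.33), Gpt (-3.10), Cdkn2c (-2.73), Trabd2b (-2.64), Igfals (-2.57), Lpgat1 (-2.42), Ighm (-1.98), Thbd (-1.95), Fmr1 (-1.86), Agpat2 (-1.79), Cav1 (-1.74), Cavin3 (-1.65), Rgs5 (-1.60), Cav2 (-1.59), Pank3 (-1.56), Slc2a4 (-1.53), Rps6ka3 (-1.43), Ehd3 (-1.40) and Pmp22 (-1.17). Higher than elsewhere, and not over 4 times higher in fed kidney or lung than in fed white adipose, were Tmem132b (5.69), Mmd2 (4.25), Gstm7 (4.24), Acsbg1 (4.14), Wnk2 (4.09), Irf4 (3.67), Gprin3 (3.56), Gstm6 (3.49), Dnaja4 (3.26), Cacna1h (3.12), Gstm5 (2.94), Abcg1 (2.03), Mest (2.03), Ckb (1.95), Thbs2 (1.83), Grb10 (1.22) and Dpp4 (1.11). Higher than elsewhere, and over that limit, were Ccdc162 (4.77), Cfap54 (4.65), Ccl28 (4.37), Lrp2 (4.34), Prom1 (4.20), Celsr1 (4.19), Hnf4a (4.14), Dnah10 (3.83), Mfsd4b1 (3.78), Cfap46 (3.78), Xylb (3.51), Krt8 (3.37), Stard10 (3.31), Erbb3 (3.24), Fads2 (2.40), Gk (2.30), Slc38a4 (2.29) and Ccnd1 (1.79). Pmp22 lost its call with total counts alone (adjusted p = 0.0521), and Slc38a4 without heart or kidney (0.056 at most). Many of these genes were named on the white adipose fold that the fit also uses, so their calls are partly built in. The epithelial markers given in the report were higher in the same fasting library, and their part in these differences was not tested.

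In Esr1, Cilp, Acta1, Camk2b, Ccnd1 and Kit the white adipose fold (1.38, 2.17, 1.35, 3.44, 1.23 and 1.08, in that order) went past 2-fold the other way in brown adipose, and this difference between the 2 tissues was not tested. Kit and Ccnd1 were over 4 times higher in fed kidney or lung, and with TMM or DESeq2 factors Kit was within 2-fold in white adipose (0.97 and 0.96). Acta1, a skeletal muscle actin, stands beside muscle markers that summed to 435 and 492 CPM in white and to 8293 and 3467 CPM in brown adipose.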

How the results depend on the processing

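With 1 pool per group, what limits the white adipose folds is the unknown spread between mice, and for genes near 1 CPM the 23 to 28 counts behind a value. Of 14146 members, 712 past 2-fold higher and 364 lower became 2046 and 1410 at a limit of 0.5 on the log2 scale, 298 and 213 with a floor of 5 CPM, and 7171 and 3310 with no floor (29956 genes). With alternatives chosen after seeing the data they became 192 and 170 with a floor of 10 CPM (8604 genes), and the higher ones 371 without genes over 4 times higher in fed kidney or lung and 337 without those of spleen as well, or 346 with the limit on fed brown adipose. These settings change which genes are counted; the other settings stayed within 1.5 times. The median of all members was -0.08 with TMM and -0.09 with DESeq2 factors. Under the other scalings and the pseudocount of 1 CPM, 776 fold values of named genes stayed inside their counting interval and 274 did not. Of the medians of gene lists, 67 values stayed within the median counting half-width of their genes and 28 did not.

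Against the other 7 tissues, the 93 lower members became 216 with DESeq2, 55 with total counts alone and 152 with no filter. The 262 higher stayed within 1.5 times over the alternatives run on all members (224 to 359). Leaving out 1 other tissue gave 224 to 308 higher and 69 to 167 lower, the last without brown adipose. Without members over 4 times higher in fed kidney or lung, the main fit gave 85 higher and 91 lower. The mean response of the other tissues (236 higher, 155 lower) became 674 and 592 with DESeq2 and 565 and 447 with no filter, and 308 lower with total counts alone. Leaving out a tissue gave 76 to 250 higher and 34 to 185 lower: 99 and 38 without brown adipose, 76 and 34 without heart, 131 and 67 without kidney, 114 and 50 without lung, and 100 and 45 without muscle. The cause was not tested. Of the named genes' differences from the other tissues, 591 values kept their call and 14 lost it, those of Agpat2 (7 of 11 alternatives), Slc2a4, Ccnd1 and Slc38a4 (2 each) and Pmp22 (1); in the other tissues 301 kept and 117 lost it, and no direction was reversed. No paired analysis was possible because the labels give no replicate numbers and each group has 1 library; the fit across tissues has a term for each tissue and so sets fasting against fed within it.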

Other observations

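Some groups outside the lists, chosen after the values were seen, are given as values. Of 8 members of a list of caveola genes, which form the plasma membrane pits abundant in adipocytes and endothelium, 4 were past 2-fold lower in fasting white adipose and none higher (median -0.85, brown adipose -0.47). Cav1, the main coat protein, stood at 3238 and 999 CPM (log2 fold change -1.70), Cav2 at 515 and 172 CPM (-1.59), Cavin3 at 230 and 67.7 CPM (-1.76) and Ehd2 at 947 and 373 CPM (-1.34). Cavin1, needed to form caveolae, was within 2-fold (1028 and 801 CPM, -0.36), as was Cavin2 (0.19). In the edgeR fit the response of Cav1 differed from the mean of the other 7 tissues by -1.74 ± 0.34 (SE, log2). The difference was -1.59 ± 0.31 for Cav2 and -1.65 ± 0.26 for Cavin3. The list was chosen after the white adipose folds in these differences were seen, so they are a description. The endothelium markers summed to 2490 and 2193 CPM. Of the 13 that were members, 9 were below 0 and 4 above, against 6684 below 0 of all 14146 members. Their median was -0.25 (0.08 in brown adipose) and none was past 2-fold. The part of endothelium in the caveola folds was not tested.

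Of 17 imprinted genes among the members, 6 were past 2-fold higher and 2 lower (median 0.30). Peg3 went from 276 to 1774 CPM (2.69) and was as high in brown adipose (2.65). Its neighbour Zim1 went from 6.998 to 173 CPM (4.62), and Slc38a4 from 2.96 to 17.7 CPM (2.57, over 4 times higher in fed kidney or lung). Mest, Grb10 and Zdbf2 (1.26) were the other genes past 2-fold higher, and Nnat (-1.32) and Ndn (-1.01) the lower ones. Ndn was within 2-fold under 2 alternatives.

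Of 6 mu-class glutathione transferases, Gstm5 (28.0 and 210 CPM, 2.91), Gstm6 (4.08 and 30.2 CPM, 2.89) and Gstm7 (6.18 and 95.05 CPM, 3.94) were past 2-fold higher, and Gstm1 (0.48), Gstm2 (0.13) and Gstm4 (-0.09) were not. These paralogs lie in 1 cluster and resemble each other, so that the counts of single members are uncertain. In brown adipose Gstm5 (-0.15) and Gstm7 (-0.50) were within 2-fold, and of the 6 genes 1 was past 2-fold lower and none higher.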
